A study of Gallus gallus with 3 samples.

Results

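The genes described here encode 10 proteins of the B-cell receptor signalling pathway, namely CD79B, CD72, LYN, BLK, SYK, BTK, BLNK, PIK3AP1, VAV3 and PLCG2. They were chosen by name. A probe was taken as theirs when its RefSeq accession belonged to that gene in the RefSeq gene table. Of the 10 genes, 8 had such a probe, 23 probes in all among 11934 named probes of 5382 genes. BLNK was found under the symbol SH2D6, for which the table gives BLNK as an older name. BLK and PLCG2 had no probe with a matching accession and are not analysed here. All 23 probes were well above background on every array, so none of the 8 genes was lost to the filter on dim spots, which kept 4194 genes.

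DT40 is a chicken B-cell lymphoma line in which genes can readily be replaced by homologous recombination. The arrays held RNA of DKO cells, a double knockout of H2A.Z, that carried the H2A.Z1ΔC mutant protein, of DKO cells that carried H2A.Z1, and of wild-type DT40. Both DKO lines share the loss of their own H2A.Z, a histone H2A variant. Each group was 1 array with 1 colour (Cy3), so no value below has a replicate and no test between groups was possible. Precision is limited by there being 3 arrays in all. The labels do not say whether a line was 1 clone or what drove the introduced gene.

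In B cells the antigen receptor pairs surface immunoglobulin with a signalling dimer of CD79A and CD79B. Src-family kinases such as LYN and BLK phosphorylate its cytoplasmic tails, to which SYK then binds. SYK phosphorylates the adaptor BLNK, on which BTK and phospholipase PLCG2 meet to start the calcium response. The adaptor PIK3AP1 links the receptor to phosphoinositide 3-kinase, and VAV3 activates small GTPases that act on the cytoskeleton. CD72 is a surface co-receptor that in mammals restrains the signal through the phosphatase PTPN6. DT40 lines that lack single genes of this pathway were a main tool for working it out.

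Levels are log2 of the processed signal relative to the 75th percentile of the same array, so 0 is the 75th percentile. Different probes bind with different strength, so only the same probe is compared between arrays. A gene's value is the mean over its probes. H2A.Z1 and wild-type cells shared slide 1 and scan 1, whereas the H2A.Z1ΔC array came from slide 2, scan 2, so slide and genotype cannot be told apart wherever H2A.Z1ΔC is compared. The deposited series matrix equals the scanner values up to 1 factor per array for H2A.Z1ΔC and wild type. For H2A.Z1 it did not, with a robust standard deviation of the log2 ratio of 0.322 over 29011 probes. The origin of those values is unknown, and differences of the 8 genes that involve H2A.Z1 are therefore given with both sets. Levels, bounds, neighbouring genes and pattern distances use the scanner values unless the matrix is named. The targeted gene, H2AFZ, had a pair of probes. Probe 1 stood at -0.85 in H2A.Z1ΔC, -0.31 in H2A.Z1 and 6.17 in wild-type cells, and probe 2 at -0.21, 0.81 and 5.87 in the same order. Whether these probes bind the introduced sequences is not known.

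Lymphoid identity was read from marker lists. Of 7 B-cell markers with a named probe, a list that holds CD79B itself, 7 were well above background in H2A.Z1ΔC cells, 7 in H2A.Z1 cells and 6 in wild-type cells. Their summed linear level was 135 in H2A.Z1ΔC, 140 in H2A.Z1 and 131 in wild-type cells, mainly from CD79B. Of the 6 measured on all arrays, 5 were lower in H2A.Z1ΔC than in H2A.Z1 cells, where 48.1% of all genes were lower. Their median was -0.22, or 0.04 with the matrix values, where 3 of 6 were lower. In H2A.Z1ΔC minus wild type 4 of 6 were lower, with a median of -0.33, where 50.1% of all genes were lower. By its single probe PAX5, the factor that maintains B-cell identity, stood at -3.06 in H2A.Z1ΔC, -2.42 in H2A.Z1 and -2.57 in wild-type cells. TNFRSF13B, a receptor for B-cell survival factors, went the other way and stood by its brightest probe at 2.25 in H2A.Z1ΔC, 0.83 in H2A.Z1 and 0.60 in wild-type cells. The T-cell list had 5 of 6 genes well above background on each array. CD4 was the exception on all 3 arrays. The summed linear level of the T-cell list was 49.9 in H2A.Z1ΔC, 72.3 in H2A.Z1 and 84.5 in wild-type cells, mainly from CD3D, a T-cell receptor subunit (log2 level of the brightest probe 5.62, 6.15 and 6.38 in the same order). Of the other T-cell markers above background, CD28, CD8A and CD3E did not share this order. CD28 stood at -5.53 in H2A.Z1ΔC, -6.25 in H2A.Z1 and -6.20 in wild-type cells, and CD8A at -4.22, -4.60 and -4.60. CD3E stood highest in H2A.Z1 cells, at -4.73 in H2A.Z1ΔC, -2.30 in H2A.Z1 and -5.71 in wild-type cells. The erythroid list summed to between 0.160 and 0.195 on the 3 arrays, and the myeloid list to between 0.151 and 0.253. The fibroblast list summed to 0.372 in H2A.Z1ΔC, 1.26 in H2A.Z1 and 0.417 in wild-type cells. The H2A.Z1 sum came mainly from COL1A2, whose brightest probe stood at -2.23 in H2A.Z1ΔC, 0.06 in H2A.Z1 and -2.23 in wild-type cells. Of 8 fibroblast genes with a named probe, 6 were well above background in H2A.Z1ΔC, 5 in H2A.Z1 and 4 in wild-type cells.

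Among the 8 measured genes CD72 differed most. Its signal was lower in H2A.Z1ΔC cells than in both other lines, about 3-fold, at each of its probes. PIK3AP1 was highest in H2A.Z1 cells, and BTK was lowest in H2A.Z1ΔC cells, both by less than 2-fold in every comparison. CD79B, LYN, SYK, BLNK and VAV3 differed, as gene means, by no more than 0.32 on the log2 scale between any 2 arrays. The plot of levels by array shows every probe of the 8 genes.

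**Figure D1:**
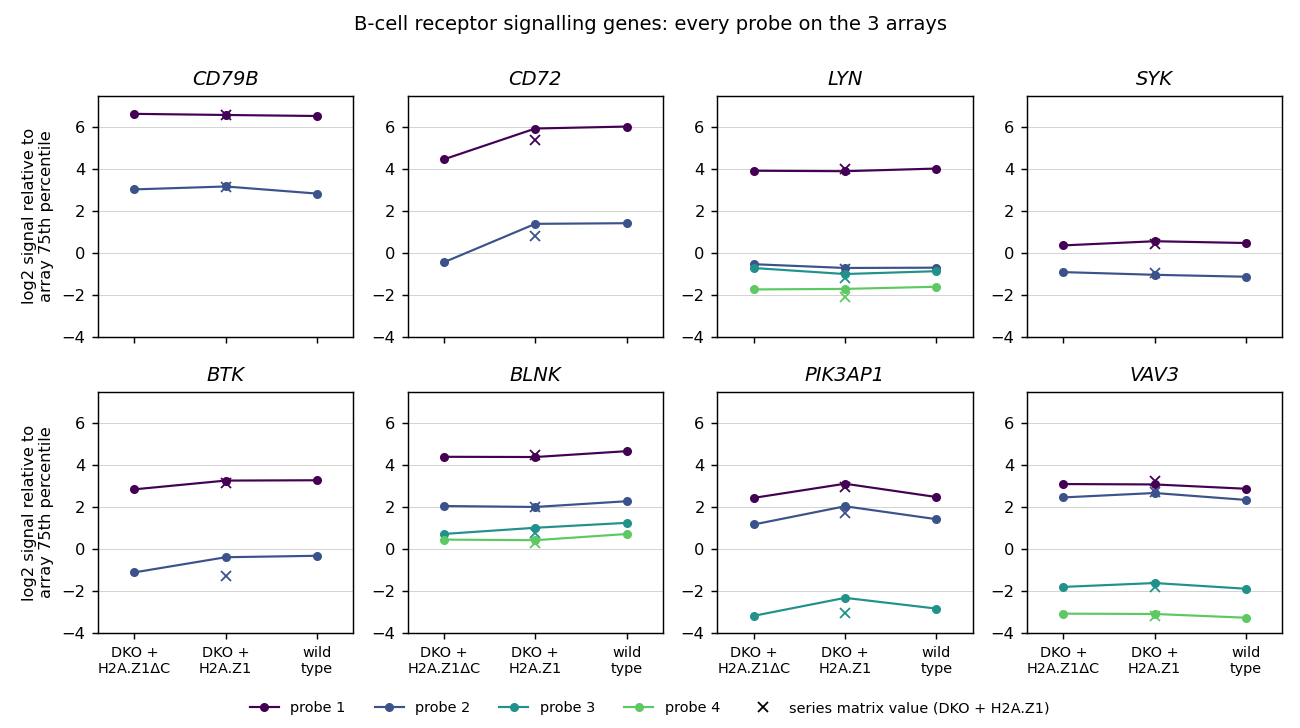
Log2 signal relative to the array's 75th percentile (vertical axis) of each probe of the 8 genes in DKO cells with H2A.Z1ΔC, DKO cells with H2A.Z1 and wild-type cells (1 array each); points of 1 probe are joined, and crosses give the series matrix value of the H2A.Z1 sample. Both CD72 probes drop on the H2A.Z1ΔC array, to 4.47 and -0.43, while the lines of CD79B, LYN and SYK are nearly flat; heights of different probes are not comparable.

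CD79B, the signalling subunit of the receptor, was bright and nearly level. Its brighter probe read 6.63 in H2A.Z1ΔC, 6.58 in H2A.Z1 and 6.53 in wild-type cells. The dimmer probe read 3.04 in H2A.Z1ΔC, 3.18 in H2A.Z1 and 2.84 in wild-type cells. As a gene, CD79B differed by -0.04 ± 0.14 between H2A.Z1ΔC and H2A.Z1 (SD between its 2 probes; -0.03 with the matrix values) and by 0.15 ± 0.07 between H2A.Z1ΔC and wild type. H2A.Z1 minus wild type was 0.19 ± 0.20. The matrix values gave 0.18 for the last difference.

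CD72 was represented by a probe printed in 5 spots and by a single-spot probe. Before scaling, the 5 spots of the first gave 20977 to 24132 units in H2A.Z1ΔC, 92966 to 97732 units in H2A.Z1 and 93036 to 98391 units in wild-type cells. All spots of the H2A.Z1ΔC array thus lay below those of the other arrays, which overlapped each other in these units. The spots of H2A.Z1 and wild type no longer overlapped after scaling to the 75th percentile. There the 5 spots averaged 4.47 ± 0.08 in H2A.Z1ΔC, 5.93 ± 0.03 in H2A.Z1 and 6.03 ± 0.03 in wild-type cells (SD between spots of 1 array). The single-spot probe read -0.43 in H2A.Z1ΔC, 1.40 in H2A.Z1 and 1.43 in wild-type cells.

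As log2 differences, H2A.Z1ΔC minus H2A.Z1 was -1.46 at the repeated probe and -1.83 at the single-spot probe. H2A.Z1ΔC minus wild type was -1.56 and -1.86. The gene means were -1.64 ± 0.26 and -1.71 ± 0.21 (SD between 2 probes), or 3.13-fold and 3.26-fold lower in H2A.Z1ΔC cells. H2A.Z1 minus wild type was -0.06 ± 0.04. Repeated spots of 1 probe gave a standard deviation of 0.0998 for the first difference over 35 such probes. H2A.Z1ΔC minus H2A.Z1 differed between the 2 probes of 1 gene by 0.347, a root mean square over 1392 genes. This root mean square is the spread between probes of 1 gene named below. Both spreads leave out culture, RNA preparation and hybridisation. Of 4194 genes, 21 (0.501%) were as low or lower in H2A.Z1ΔC against H2A.Z1, and 48 (1.14%) against wild type.

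The matrix values placed the H2A.Z1 sample between the other lines. There the repeated CD72 probe read 5.39 and the single-spot probe 0.81. With them H2A.Z1ΔC minus H2A.Z1 was -1.08 for the gene and H2A.Z1 minus wild type was -0.62. CD72 was therefore lower in H2A.Z1ΔC than in H2A.Z1 cells with both sets, by less with the matrix. The T-cell list, whose summed level was also lowest on the H2A.Z1ΔC array, has the values given above. Its part in the CD72 difference was not tested.

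In the order of genes along the chromosome, the nearest measured gene to CD72 was CD72L1, whose name marks it as CD72-like. Whether their probes tell the transcripts apart is not known. CD72L1 differed by -0.33 between H2A.Z1ΔC and H2A.Z1 and by -0.05 between H2A.Z1ΔC and wild type. The 5 nearest measured genes on each side of CD72 had a median of -0.27 in H2A.Z1ΔC minus H2A.Z1, and 1 of these 10, IL11RA, a cytokine receptor gene, was past a log2 difference of 1, at -1.17. In H2A.Z1ΔC minus wild type their median was -0.34, and 2 were past 1, IL11RA at -2.06 and AVD, which encodes avidin, at -3.09. In H2A.Z1 minus wild type AVD stood at -3.50 and IL11RA at -0.89, where CD72 had -0.06. Between CD72 and these genes lay 19 genes for AVD and 32 for IL11RA. For BTK the median over 10 neighbours in H2A.Z1ΔC minus H2A.Z1 was 0.28 and for PIK3AP1 -0.05, with 0 neighbours past 1. CD79B also had 0 of 10 past 1 there, SYK and LYN 1 of 10 each, BLNK 2 of 10 and VAV3 2 of 6. The count for CD72 was thus not particular to it. Of all genes 4.39% were past 1 in H2A.Z1ΔC minus H2A.Z1 and 6.72% in H2A.Z1ΔC minus wild type. The neighbours were looked up after the values of the 8 genes had been seen.

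LYN, the Src-family kinase that starts the cascade and also phosphorylates inhibitory receptors, had 4 probes. The brightest read 3.92 in H2A.Z1ΔC, 3.90 in H2A.Z1 and 4.03 in wild-type cells. Over the 4 probes H2A.Z1ΔC minus H2A.Z1 was 0.12 ± 0.14, H2A.Z1ΔC minus wild type 0.02 ± 0.16 and H2A.Z1 minus wild type -0.09 ± 0.06 (SD between probes). The probes disagreed in direction in the first 2 of these. In the matrix LYN differed by 0.25 for H2A.Z1ΔC minus H2A.Z1 and -0.23 for H2A.Z1 minus wild type. By scanner gene means LYN was the single gene of the 8 that was not lower in H2A.Z1ΔC than in H2A.Z1 cells.

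SYK, the kinase that binds the phosphorylated receptor tails, had a probe that read 0.37 in H2A.Z1ΔC, 0.57 in H2A.Z1 and 0.49 in wild-type cells. Its other probe read -0.90 in H2A.Z1ΔC, -1.03 in H2A.Z1 and -1.12 in wild-type cells. The probes ranked the arrays differently, and the gene means differed by at most 0.09 between arrays. SYK had the narrowest range of the 8 genes. For SYK the matrix gave -0.01 for H2A.Z1ΔC minus H2A.Z1 and 0.06 for H2A.Z1 minus wild type.

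BTK, the Tec-family kinase that activates PLCG2, was lower in H2A.Z1ΔC cells at both probes. The brighter probe read 2.85 in H2A.Z1ΔC, 3.27 in H2A.Z1 and 3.28 in wild-type cells. The dimmer probe read -1.10 in H2A.Z1ΔC, -0.38 in H2A.Z1 and -0.31 in wild-type cells. H2A.Z1 and wild type were close at both, and H2A.Z1ΔC stood below them. The gene differed by -0.57 ± 0.22 between H2A.Z1ΔC and H2A.Z1 and by -0.61 ± 0.25 between H2A.Z1ΔC and wild type (SD between 2 probes); the second corresponds to 1.53-fold. These exceeded the spread between probes of 1 gene, 0.347 and 0.420, as did 30.2% and 28.3% of all genes, either way, in the same order.

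For BTK the source of the H2A.Z1 values decided the first comparison. With the matrix values H2A.Z1ΔC minus H2A.Z1 was -0.07 and H2A.Z1 minus wild type -0.54. The dimmer probe carried most of this, with a matrix level of -1.26 in H2A.Z1 cells, and the brighter probe read 3.16. The difference between H2A.Z1ΔC and wild type does not use that sample. Against the background, 231 of 4194 genes (5.51%) were as low as BTK or lower in H2A.Z1ΔC minus H2A.Z1, and 345 (8.23%) in H2A.Z1ΔC minus wild type.

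**Figure D2:**
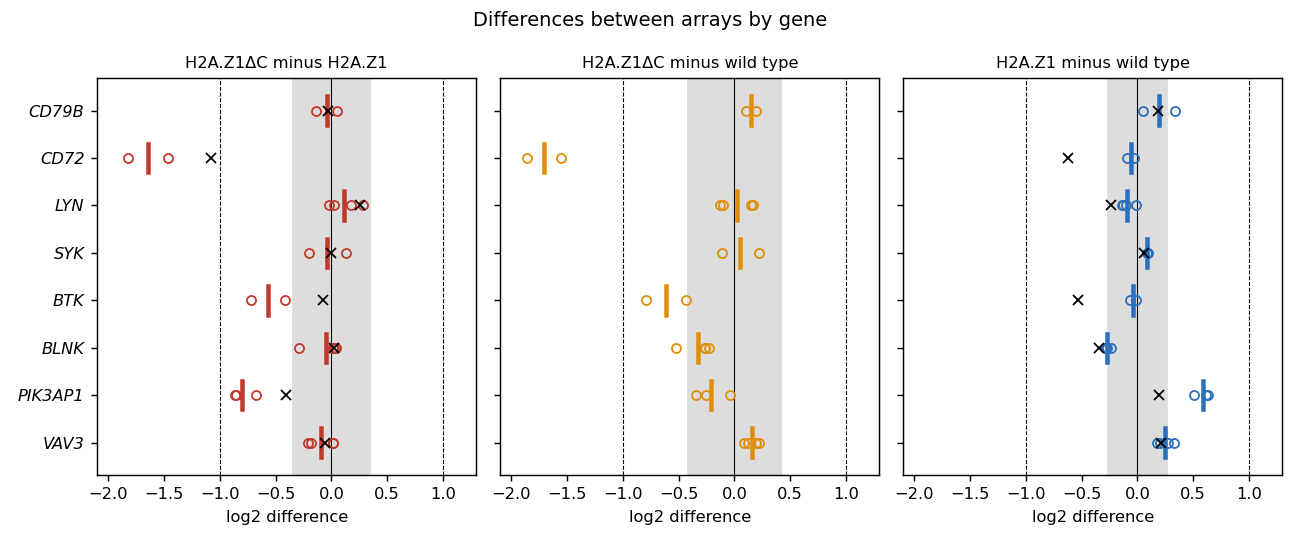
Log2 differences between arrays (horizontal axis) for the 8 genes; open circles are single probes, bars are gene means and crosses the gene means with the series matrix values, which alter only the H2A.Z1 sample. The grey band is plus or minus the root mean square difference between 2 probes of 1 gene (0.347, 0.420 and 0.264 from left to right). Dashed lines mark a difference of 1, and CD72 alone lies beyond -1, in both comparisons of H2A.Z1ΔC.

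BLNK, the adaptor that gathers BTK and PLCG2 at the receptor, had 4 probes. The brightest read 4.40 in H2A.Z1ΔC, 4.39 in H2A.Z1 and 4.67 in wild-type cells. The other 3 read 2.06, 0.73 and 0.46 in H2A.Z1ΔC, 2.01, 1.02 and 0.43 in H2A.Z1, and 2.29, 1.26 and 0.73 in wild-type cells. Each of the 4 was thus highest in wild type. H2A.Z1 minus wild type was -0.27 ± 0.03 (SD between 4 probes), the smallest SD among BLNK, LYN and VAV3, the genes with 4 probes. H2A.Z1ΔC minus wild type was -0.32 ± 0.14. With the matrix values H2A.Z1 minus wild type was -0.35. H2A.Z1ΔC minus H2A.Z1 was -0.05 ± 0.16, or 0.03 with the matrix values. The H2A.Z1 difference from wild type slightly exceeded the spread between probes of 1 gene, 0.264, as did 29.5% of all genes, either way. The H2A.Z1ΔC difference from wild type did not exceed its own, 0.420. In H2A.Z1 minus wild type 703 of 4194 genes (16.8%) were as low as BLNK or lower.

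PIK3AP1, also known as BCAP, was higher in H2A.Z1 cells than in both other lines at each of 3 probes. The brightest read 2.45 in H2A.Z1ΔC, 3.12 in H2A.Z1 and 2.49 in wild-type cells. The middle probe read 1.18 in H2A.Z1ΔC, 2.05 in H2A.Z1 and 1.43 in wild-type cells. The dimmest read -3.17 in H2A.Z1ΔC, -2.31 in H2A.Z1 and -2.82 in wild-type cells. The gene differed by -0.80 ± 0.11 between H2A.Z1ΔC and H2A.Z1, or 1.74-fold lower. H2A.Z1 minus wild type was 0.59 ± 0.07 and H2A.Z1ΔC minus wild type -0.21 ± 0.16 (SD between 3 probes).

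The matrix values reduced both PIK3AP1 differences of H2A.Z1 cells. H2A.Z1ΔC minus H2A.Z1 became -0.41 and H2A.Z1 minus wild type 0.20. The dimmest probe, at -3.01 in the matrix, was then lower in H2A.Z1 than in wild-type cells. In the scanner values 107 of 4194 genes (2.55%) were as low as PIK3AP1 or lower in H2A.Z1ΔC minus H2A.Z1. In H2A.Z1 minus wild type 132 (3.15%) were as high or higher.

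VAV3, a guanine nucleotide exchange factor, had 4 probes that moved little. The brightest read 3.10 in H2A.Z1ΔC, 3.08 in H2A.Z1 and 2.88 in wild-type cells. All 4 were higher in both DKO lines than in wild type. H2A.Z1ΔC minus wild type was 0.16 ± 0.06 and H2A.Z1 minus wild type 0.25 ± 0.07 (SD between 4 probes), and the matrix values gave 0.21 for H2A.Z1 minus wild type. H2A.Z1ΔC minus H2A.Z1 was -0.09 ± 0.12, or -0.06 with the matrix values. None of these exceeded the spread between probes of 1 gene.

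Taking a log2 difference of 1 (2-fold) as the size of interest, 1 of the 8 genes, CD72, was past it in H2A.Z1ΔC minus H2A.Z1, on the low side. Of all 4194 genes, 4.39% were past it there, 2.89% higher and 1.5% lower. The same 1 of 8 was past it on the low side in H2A.Z1ΔC minus wild type, where 6.72% of all genes were past it, 3.31% higher and 3.41% lower. In H2A.Z1 minus wild type 0 of 8 were past it, where 3.08% of all genes were, 1.17% higher and 1.91% lower. At 1.5-fold, CD72 and PIK3AP1 (2 of 8) were lower in H2A.Z1ΔC minus H2A.Z1 and 0 were higher, where 5.13% of all genes were lower and 7.53% higher. CD72 and BTK (2 of 8) were lower in H2A.Z1ΔC minus wild type and 0 were higher, where 8.94% were lower and 8.75% higher. BTK was only just past the threshold, at 1.528-fold, and fell below it with its brightest probe alone (log2 difference -0.43). PIK3AP1 (1 of 8) was higher in H2A.Z1 minus wild type and 0 were lower, where 3.15% were higher and 5.87% lower. There PIK3AP1 was barely past the threshold, at 1.501-fold. It fell below 1.5-fold with normexp and the 75th percentile (log2 difference 0.578) and with the matrix values (0.20). In H2A.Z1ΔC minus H2A.Z1 PIK3AP1 also fell below 1.5-fold with the matrix values, at -0.41.

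The median of the 8 genes was -0.07 in H2A.Z1ΔC minus H2A.Z1, where all genes had 0.01. It was -0.10 in H2A.Z1ΔC minus wild type, where all genes had 0.00, and 0.02 in H2A.Z1 minus wild type, where all genes had -0.02. In the first comparison 7 of 8 were lower, with differences between -1.64 and -0.04, whereas 48.1% of all genes were lower. By probe, 13 of 23 were lower. With the matrix values 6 of 8 genes were lower. With the brightest probe of each gene 4 of 8 were lower, since CD79B (0.05), BLNK (0.01) and VAV3 (0.02) then stood slightly above 0, as LYN did. Against wild type 4 of 8 were lower in H2A.Z1ΔC cells and 4 of 8 in H2A.Z1 cells. The 3 comparisons share arrays, so these counts are not independent of each other.

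The other genes of the pathway were taken from 8 lists by role, which hold 116 genes besides the 10. Of these 60 had a named probe and 54 were measured on all arrays. Past a log2 difference of 1 in H2A.Z1ΔC minus H2A.Z1 were 2 of the 54 higher and 0 lower, with a median of -0.02, where 2.89% of all genes were higher and 1.5% lower. With the matrix values 0 were higher and 2 lower, where 69 of all 4194 genes were higher and 45 lower. In H2A.Z1ΔC minus wild type 2 were higher and 1 was lower, where 3.31% of all genes were higher and 3.41% lower. In H2A.Z1 minus wild type 0 were higher and 1 was lower, where 1.17% of all genes were higher and 1.91% lower. The medians of the 54 were 0.00 and 0.03 in the same order. With the matrix 2 were higher and 1 was lower in H2A.Z1 minus wild type, where 104 of all 4194 genes were higher and 123 lower. The calls that involve H2A.Z1 thus depended on the source of its values. The plot by role shows the 8 genes among these.

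**Figure D3:**
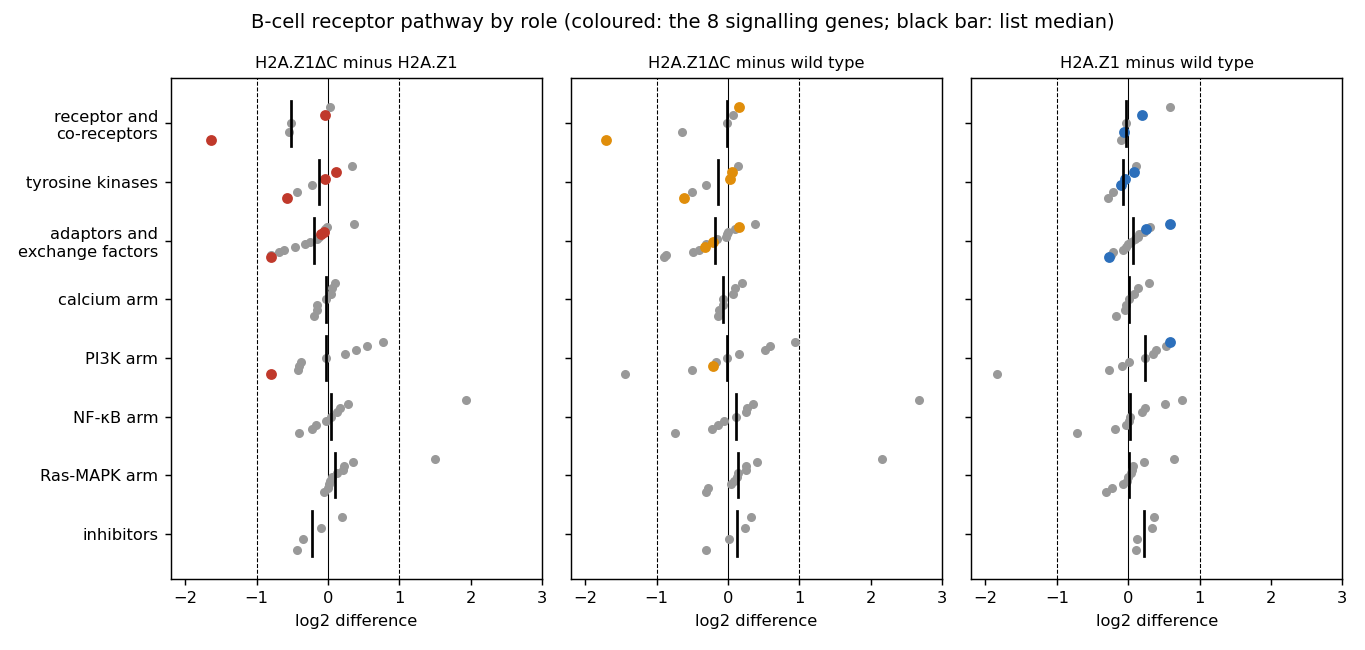
Log2 differences between arrays (horizontal axis) for 62 measured genes of the B-cell receptor pathway in 8 role lists; coloured points are the 8 genes described above, grey points the other 54 and black bars the list medians, and a gene in several lists appears in each. CD72 is the lowest point in both comparisons of H2A.Z1ΔC, where PRKCA and HRAS lie beyond 1 on the high side.

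Among receptors and co-receptors, CD40, a receptor for T-cell help, was the lowest apart from CD72 in H2A.Z1ΔC minus H2A.Z1, at -0.55, but 0.00 with the matrix values. PTPRC, the phosphatase CD45 that keeps Src-family kinases active, was the highest there, at 0.02 (0.06 with the matrix values). Of the kinases measured on all arrays besides LYN, SYK and BTK, CSK, which inactivates Src-family kinases, was lowest at -0.43 (-0.07 with the matrix values) and TEC highest at 0.34 (0.16 with the matrix values). TEC was measured by 1 dim probe, at -5.45 in H2A.Z1ΔC and -5.79 in H2A.Z1 cells. FYN, also of this list, was well above background in H2A.Z1ΔC and wild-type cells and not in H2A.Z1 cells. Its 1 probe was dim where detected, at -5.30 in H2A.Z1ΔC and -5.18 in wild-type cells. By this probe FYN was at least 3.98-fold higher in H2A.Z1ΔC than in H2A.Z1 cells. It was at least 4.32-fold lower in H2A.Z1 cells than in wild type. These bounds use the scanner values and set the bright array against the lowest signal well above background on the dim array. Both rest on the H2A.Z1 array, and no bound was made with the matrix values.

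In the list of adaptors and exchange factors, which includes BLNK, PIK3AP1 and VAV3, 13 of 14 measured genes were lower in H2A.Z1ΔC than in H2A.Z1 cells, with a median of -0.20, where 48.1% of all genes were lower. With the matrix values 8 of 14 were lower, with a median of -0.06. DAPP1, an adaptor that binds phosphoinositide 3-kinase products, was lowest outside the 8. It stood at -0.18 in H2A.Z1ΔC, 0.62 in H2A.Z1 and 0.69 in wild-type cells, and its 2 probes gave -0.86 and -0.73 in H2A.Z1ΔC minus H2A.Z1. The matrix values gave -0.37. Under the matrix values LAT2, at -1.30, and RAC2, at -1.02, passed a log2 difference of 1. The scanner values gave -0.46 and -0.68, each by 1 probe. LAT2 was dim, with scanner levels of -6.91 in H2A.Z1ΔC and -6.44 in H2A.Z1 cells. The lowest signal well above background on the H2A.Z1 array was -7.29. RAC2 was brighter, at 2.01 and 2.70. GRB2, which couples receptors to Ras activation, was the 1 gene of the list on the high side, at 0.37 (0.54 with the matrix values).

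The calcium arm was narrow, with a median of -0.02 over 7 measured genes in H2A.Z1ΔC minus H2A.Z1. ITPR1, an intracellular calcium release channel, was the lowest of them at -0.19, but its 2 probes gave -0.48 and 0.09, and the matrix values gave 0.03. With the matrix values STIM1, the calcium sensor of the endoplasmic reticulum, was lowest at -0.36. In the phosphoinositide 3-kinase arm, apart from PIK3AP1, PDPK1, which phosphorylates AKT, was lowest at -0.42 (-0.26 with the matrix values) and PIK3CB, a catalytic subunit, highest at 0.78 (0.54 with the matrix values). PIK3R5, a regulatory subunit, was lower in both DKO lines: it stood at -1.98 in H2A.Z1ΔC, -2.38 in H2A.Z1 and -0.54 in wild-type cells. Its 3 probes gave -1.81 to -1.15 in H2A.Z1ΔC minus wild type and -1.94 to -1.64 in H2A.Z1 minus wild type. The matrix values gave -1.41 for H2A.Z1 minus wild type.

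In the NF-κB arm PRKCA, a protein kinase C gene, stood at -1.25 in H2A.Z1ΔC, -3.18 in H2A.Z1 and -3.93 in wild-type cells. Its 2 probes gave 1.88 and 1.98 in H2A.Z1ΔC minus H2A.Z1. The matrix values gave 0.79, and H2A.Z1 minus wild type was 1.89 in place of 0.75. In the Ras-MAPK arm 9 of 10 measured genes were higher in H2A.Z1ΔC than in H2A.Z1 cells, with a median of 0.09. Of all 4194 genes, 2176 were higher there. With the matrix values 9 of 10 were higher, with a median of 0.19, where 2188 of all genes were higher. HRAS, by 1 probe, stood at -0.46 in H2A.Z1ΔC, -1.97 in H2A.Z1 and -2.61 in wild-type cells. Its difference of 1.51 between H2A.Z1ΔC and H2A.Z1 was 0.47 with the matrix values. FOS, an immediate-early gene, was lowest at -0.05 (-0.20 with the matrix values).

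EGR1, an immediate-early gene induced by receptor signalling, was well above background on the H2A.Z1ΔC array alone at both probes. The bounds were small, at least 1.13-fold and 1.29-fold against H2A.Z1 cells and 1.07-fold and 1.21-fold against wild type. CD38, a surface enzyme, was likewise detected on that array alone by its 1 probe, at least 1.42-fold above H2A.Z1 cells and 1.33-fold above wild type. The H2A.Z1ΔC array also had the most probes well above background, 72.7%, where H2A.Z1 had 68.7% and wild type 69.7%. Among the inhibitors 4 genes were measured. PTPN11 was the highest in H2A.Z1ΔC minus H2A.Z1, at 0.19 (0.30 with the matrix values), and CSK the lowest. PTPN6, the phosphatase that CD72 recruits in mammals, differed by -0.35 between H2A.Z1ΔC and H2A.Z1 (-0.07 with the matrix values) and by 0.01 between H2A.Z1ΔC and wild type. Its 3 probes disagreed in direction, from -0.65 to 0.03 in the first and from -0.31 to 0.40 in the second. H2A.Z1 minus wild type was 0.36 for PTPN6 (0.07 with the matrix values). FYN, EGR1, CD38, PTPN6, LAT2, RAC2, STIM1 and the markers PAX5, TNFRSF13B, CD28, CD8A, CD3E and COL1A2 were named after their values had been seen.

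The genes whose pattern over the 3 arrays lay nearest to that of CD72 were sought among 4193 others, by the Euclidean distance between their differences from wild type in both DKO lines. Among the 3 nearest were NCF4 at a distance of 0.088 and TF at 0.10. NCF4, a subunit of the phagocyte NADPH oxidase, differed by -1.62 in H2A.Z1ΔC and -0.09 in H2A.Z1 cells, where CD72 had -1.71 and -0.06. The nearest to PIK3AP1 were IFT81 at 0.11, KLHL14 at 0.12 and SIPA1L1 at 0.12. A pattern over 3 arrays can be matched by many genes, which were not counted here, and the distance describes these arrays only.

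The results for CD72, BTK and PIK3AP1 under 9 other settings are shown in the plot of settings. CD72 in H2A.Z1ΔC minus wild type ranged from -1.77 to -1.56 over them, and in H2A.Z1ΔC minus H2A.Z1 from -1.74 to -1.08.

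**Figure D4:**
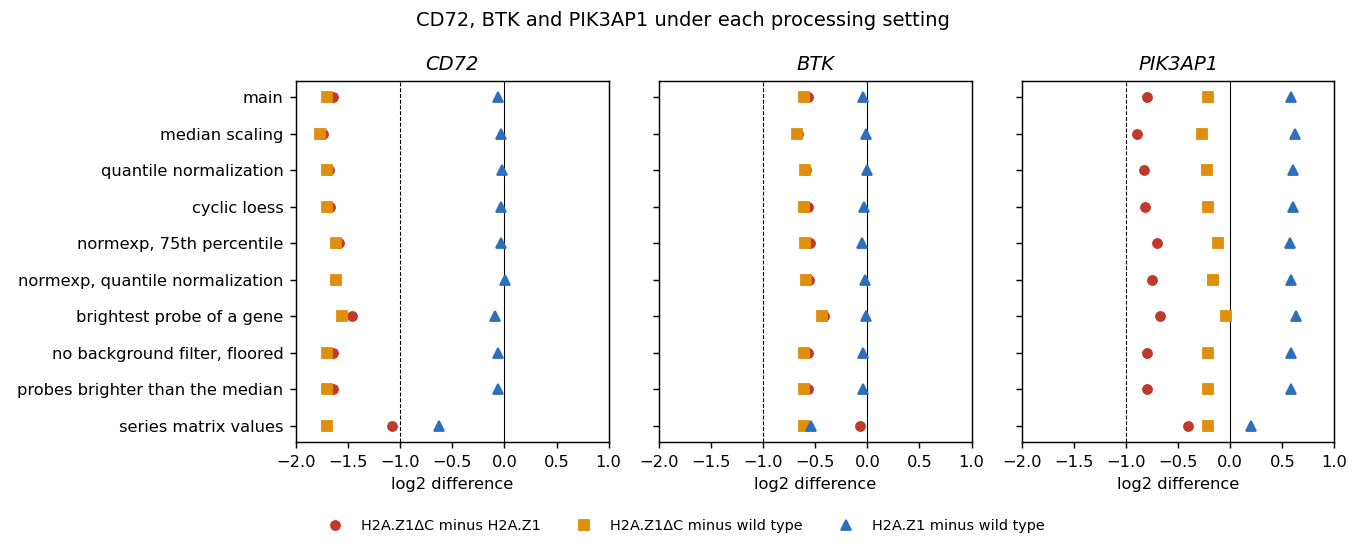
Log2 differences between arrays (horizontal axis) of CD72, BTK and PIK3AP1 under the main setting and 9 others (rows); colours and shapes give the comparison, and the dashed line marks -1. Only the series matrix row shifts the comparisons that involve the H2A.Z1 sample clearly, with CD72 at -1.08 and BTK at -0.07 in H2A.Z1ΔC minus H2A.Z1.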

How the data were processed

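RNA from 3 DT40 lines was hybridised to 1-colour Agilent chicken arrays (Cy3), 1 per group. Per the file headers, Agilent Feature Extraction 11.5.1.1 produced a linear intensity for each spot, background-subtracted and detrended within its array. The deposited series matrix holds a second linear intensity, and how it was made is not given in the sources used here.

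Control spots and 13 spots marked as outliers by the scanner software were left out, and 0 spots were saturated. Each processed signal was divided by its array's 75th percentile and taken to log2. Spots were averaged per probe, then probes per gene where all 3 arrays lay well above background. That percentile was 1039 units for H2A.Z1ΔC, 1558 units for H2A.Z1 and 1455 units for wild type. RefSeq accessions named 27.4% of 43596 probes through the gene table of GRCg7b, an assembly other than the array's, used for names and gene order only.

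No test was possible. Technical spreads stand beside the differences, that of repeated spots and that of probes of 1 gene, and both describe measurement alone. The scanner's error model gave 10.0% to 10.1% per signal for the 23 probes. Alternatives were normexp (offset 50, on the median signal) with the 75th percentile or quantile normalization, other scalings, the matrix values, the brightest probe, other filters and a 1.5-fold threshold. Averaging and counting were tested on simulated data, with shifts larger than the threshold and noise like that between repeated spots. That run checked the code only and does not bear on smaller differences or on the spread between probes or arrays. R 4.3.3, limma 3.58.1 and Python 3.11.15 were used.

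Genes, lists, markers and alternatives were chosen with earlier results of these data known. Named were all 10 genes by every probe, each listed gene past a log2 difference of 1, the highest and lowest of each role list in H2A.Z1ΔC minus H2A.Z1, and the 3 nearest patterns to CD72 and PIK3AP1. Of per-sample columns 0 were of unknown samples. Some genes that this rule names are not reported here.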

Additional observations from a re-analysis of the deposited data

How the results depend on the processing

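Neither leaving out a replicate nor a slide block was feasible with 1 array per group. No paired analysis was possible because the groups hold 1 array each and no result comes from a test. Of 216 values of single genes under alternatives, 210 moved by less than the spread between probes of 1 gene, 6 moved by more and 0 turned a difference of 1 or more around. Those 6 were the values of CD72, BTK and PIK3AP1 in the comparisons with H2A.Z1 cells, under the matrix values. Only CD72, in both comparisons of H2A.Z1ΔC, had a difference of 1 or more that could turn around. Some smaller differences changed sign. In H2A.Z1ΔC minus wild type LYN kept its sign in 6 of 9 settings and SYK in 7. In H2A.Z1ΔC minus H2A.Z1 BLNK kept it in 7 of 9, and CD79B and VAV3 in 8. In H2A.Z1 minus wild type CD72 kept it in 8 of 9. Part of the 210 could not move. Leaving out the background filter, or keeping probes brighter than the median, returned the main value for each of the 8 genes. So did the matrix values in H2A.Z1ΔC minus wild type. The median of the 8 genes in H2A.Z1 minus wild type was -0.087 with the matrix values, where it was 0.02 with the scanner values, and the cause was not tested. It ranged from -0.17 to -0.05 in H2A.Z1ΔC minus H2A.Z1 and from -0.16 to -0.05 in H2A.Z1ΔC minus wild type. At the 1.5-fold threshold, which is looser by construction, 2, 2 and 1 of the 8 genes were past it in H2A.Z1ΔC minus H2A.Z1, H2A.Z1ΔC minus wild type and H2A.Z1 minus wild type, where 1, 1 and 0 were at 2-fold. The count of all genes past it was 531, 742 and 378 in the same order, where it was 184, 282 and 129 at 2-fold. With normexp and the 75th percentile these counts at 2-fold were 91, 167 and 75, and with normexp and quantile normalization 73, 167 and 71. The matrix values gave 114 in H2A.Z1ΔC minus H2A.Z1 and 227 in H2A.Z1 minus wild type. Probes brighter than the median, a set of 3620 genes, gave 121 in H2A.Z1ΔC minus H2A.Z1. As a gene, CD72 was past 2-fold in both comparisons of H2A.Z1ΔC under all 9 settings. With the matrix values its repeated probe alone was not past it in H2A.Z1ΔC minus H2A.Z1, at -0.92. Its single-spot probe gave -1.24. Without the background filter the median of all genes in H2A.Z1ΔC minus wild type moved by -0.10. All 23 probes were well above background, so the filter removed none of them. In H2A.Z1 cells the brighter BTK probe read 3.27 by the scanner and 3.16 in the matrix. The dimmer BTK probe read -0.38 and -1.26, and the dimmest VAV3 probe -3.08 and -3.19. Whether signal strength had a part in the matrix shifts was not tested.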
